A study of Mus musculus with 15 samples.

Results

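The dual-specificity MAP kinase phosphatases are enzymes that switch MAP kinases off, and their transcripts were followed here in the mouse hippocampus during the extinction of contextual fear. The group comprised 10 genes, Dusp1, Dusp2, Dusp4, Dusp5, Dusp6, Dusp7, Dusp8, Dusp9, Dusp10 and Dusp16, and every non-control array probe whose gene name was one of these symbols was taken. That gave 13 of the 41174 probes, for 9 of the 10 genes and of 27962 gene names on the array. Dusp4 and Dusp9 had 2 probes each, Dusp16 had 3, and 6 genes had 1. Dusp5, which acts on nuclear ERK, carried no probe by that name and was not analysed here.

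All groups were male C57BL/6J mice, an inbred strain, and RNA came from whole hippocampus. Fear-conditioned mice had received a foot-shock in a box and were returned to it every 24 h without shock. Of the arrays, 5 came from mice 1 h after the first such extinction trial (E1), 5 from mice 1 h after trial 5, at which freezing had dropped (ELF), and 5 from controls. The study's design text describes the controls as placed in the box without conditioning, and the sample labels call them naive. The labels give no time of sampling for controls, so shock, re-exposure and handling cannot be told apart in a comparison with them.

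MAP kinases are active when a threonine and a tyrosine in their activation loop are both phosphorylated, and these phosphatases remove both phosphates. Dusp1, Dusp2, Dusp4 and Dusp5 are nuclear and are themselves induced by the signals they dampen, so they act as negative feedback. Dusp6, Dusp7 and Dusp9 are cytoplasmic and prefer ERK, whereas Dusp8, Dusp10 and Dusp16 prefer the stress kinases JNK and p38. In neurons ERK signalling is engaged by synaptic activity and is needed for several forms of memory, and Dusp1 is a textbook immediate early gene.

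The promoters of Dusp1, Dusp8 and Dusp2 are shown because they hold 1, 2 and 0 copies of the cAMP response element (CRE, TGACGTCA). The CRE is the site of the activity-regulated factor CREB. In the reported fit below the probe of Dusp1 was called changed, and those of Dusp8 and Dusp2 were not. Whether a change goes with the number of CREs was not tested. These promoters were chosen after the values had been seen. Each is the 250 bases before the transcription start in RefSeq's GRCm38.p6, written 5′ to 3′ on the gene's strand, at chr17:26508473-26508722 (minus strand) for Dusp1, chr7:142095285-142095534 (minus strand) for Dusp8 and chr2:127335909-127336158 (plus strand) for Dusp2. Capitals mark the CRE and the shorter motif TGACG, read on both strands (CGTCA on the other). Every CRE contains that shorter motif on each strand.
Dusp1: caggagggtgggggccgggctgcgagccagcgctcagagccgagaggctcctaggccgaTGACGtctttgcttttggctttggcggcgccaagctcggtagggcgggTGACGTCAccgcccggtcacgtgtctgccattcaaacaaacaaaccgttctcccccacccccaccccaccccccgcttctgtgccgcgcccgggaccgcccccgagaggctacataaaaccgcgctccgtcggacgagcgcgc
Dusp8: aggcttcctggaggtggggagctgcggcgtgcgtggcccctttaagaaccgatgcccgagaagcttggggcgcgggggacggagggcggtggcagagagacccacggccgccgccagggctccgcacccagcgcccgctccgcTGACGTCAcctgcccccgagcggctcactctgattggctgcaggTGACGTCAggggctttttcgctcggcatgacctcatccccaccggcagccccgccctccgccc
Dusp2: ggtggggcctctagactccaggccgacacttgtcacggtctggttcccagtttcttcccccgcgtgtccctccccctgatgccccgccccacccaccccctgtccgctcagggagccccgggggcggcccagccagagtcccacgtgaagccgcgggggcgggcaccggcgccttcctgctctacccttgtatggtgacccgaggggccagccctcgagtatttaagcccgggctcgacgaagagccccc

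The Dusp1 window held 1 CRE, at bases -143 to -136 from the start, and the Dusp8 window held 2, at -107 to -100 and -63 to -56. Of 32851 mouse promoter windows of the same length, 1.55% held a CRE and 0.0304% held at least 2. Promoters of 8 of the 10 genes were matched by symbol, and CREs lay in these 2. The TGACG motif was found in 4, those of Dusp1, Dusp5, Dusp8 and Dusp16, against 17.8% of all windows. Dusp5 had 2 CArG boxes, the binding site of serum response factor, which 1.47% of windows held at least once. No AP-1 motif (TGANTCA, 6.75% of windows) was found in the 8 windows. A match describes letters and not binding.

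Levels are log2 intensities relative to the 75th percentile of the same array, and differences are on that log2 scale. A probe was called changed at a limma p under 0.05 after Benjamini-Hochberg adjustment over 38462 probes. The 13 probes passed the filter on dim probes, were well above background on all 15 arrays and were never saturated. The arrays lay on 4 slides, and slide was partly bound to group. Slide 1 held controls 1 to 4. Slide 2 held control 5 and E1 1 to 3, slide 3 held E1 4 and 5 with ELF 3 and 4, and slide 4 held ELF 1, 2 and 5. Within the ELF group alone the 3 arrays of slide 4 did not overlap the 2 of slide 3 for 56.1% of all probes and for 7 of the 13. Arrays also split by slide in the other groups, but the shares are not directly comparable. Without any slide effect, 4 arrays against 1 fail to overlap more often than 3 against 2. Within E1 the arrays of slide 2 and slide 3 did not overlap for 36.5% of all probes and 8 of the 13, and within control the 4 arrays of slide 1 and the 1 of slide 2 did not for 55.6% and 8 of the 13. Differences with slide as a fixed block come from slide 2 for E1 against control (3 arrays against 1) and from slide 3 for ELF against E1 (2 against 2), and ELF against control adds both. Slide-blocked values below are from this fit.

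**Figure D1:**
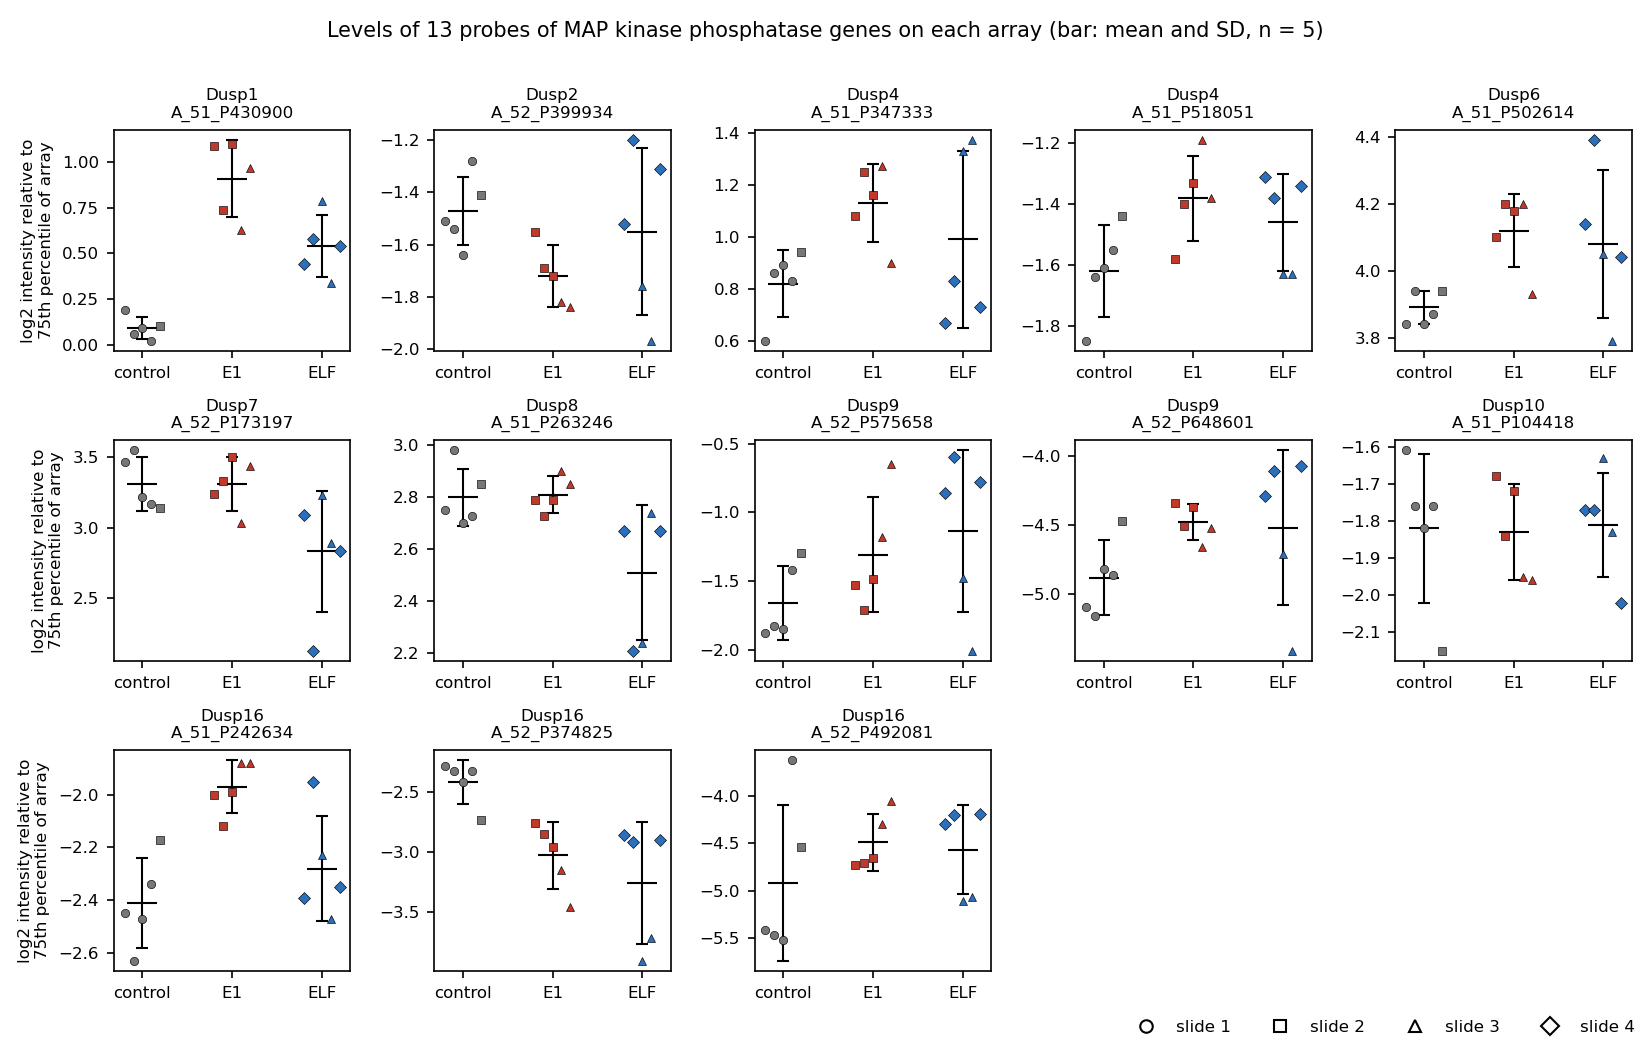
Log2 intensity relative to the array's 75th percentile (vertical axis) for each of the 13 probes in 5 control, 5 E1 and 5 ELF arrays. Points are arrays with a symbol for their slide, and bars are mean and SD; the E1 and ELF points of Dusp1 lie above all control points, and several ELF groups split into slide 4 and slide 3.

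E1 against control sets mice 1 h after a first re-exposure without shock beside mice that were not conditioned. The comparison therefore also holds the earlier shock and the handling. Dusp1 rose, by 1.76-fold, and was the 1 member probe of 13 that passed. Over all probes 0.104% passed in this comparison (27 higher and 13 lower). At an unadjusted p under 0.05, 6 of the 13 passed, against 13.1% of all probes, and 5 of these were higher in E1, against 9.12%. The 6 were not 6 genes: they were the probes of Dusp1 and Dusp6, both of Dusp4, and A_51_P242634 and A_52_P374825 of Dusp16. The Dusp16 probes had opposite signs. The arrays of the groups did not overlap for 3 of the 13, Dusp1 and these Dusp16 probes, against 3.65% of all probes. The median difference of the 13 was 0.24, with 9 above 0, and that of all probes was 0.04. With slide as a fixed block these medians were 0.06 and -0.04.

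In the comparison of ELF with control Dusp1 was again the member probe that passed, higher by 1.36-fold. Here 2.36% of all probes passed (571 higher and 336 lower). At an unadjusted p under 0.05, 4 of the 13 passed, against 23.4% of all probes, so the share of members was near the background. Of the 4, 1 was higher (14.9% of all probes) and 3 were lower (8.53%). The arrays did not overlap for 2 of the 13, against 5.03% of all probes. The median difference of the 13 was 0.16 against 0.08 for all probes, and its direction turned with slide in the fit (-0.34 with a fixed block, against -0.23 for all probes, and -0.01 with a random block). Both comparisons share their control arrays. Directly between ELF and E1 no member passed by limma, where 0.0052% of all probes (2 probes) did, and 4 of the 13 had an unadjusted p under 0.05, against 9.98% of all probes. All 4, the probes of Dusp1, Dusp7 and Dusp8 and A_51_P242634 of Dusp16, were lower in ELF. That direction was shared by 4.76% of all probes at that threshold. With slide as a fixed block the median of all probes itself moved from 0.03 to -0.18, and that of the 13 from -0.08 to -0.34. The arrays of ELF and E1 overlapped for each of the 13, against 2.14% of all probes without overlap.

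**Figure D2:**
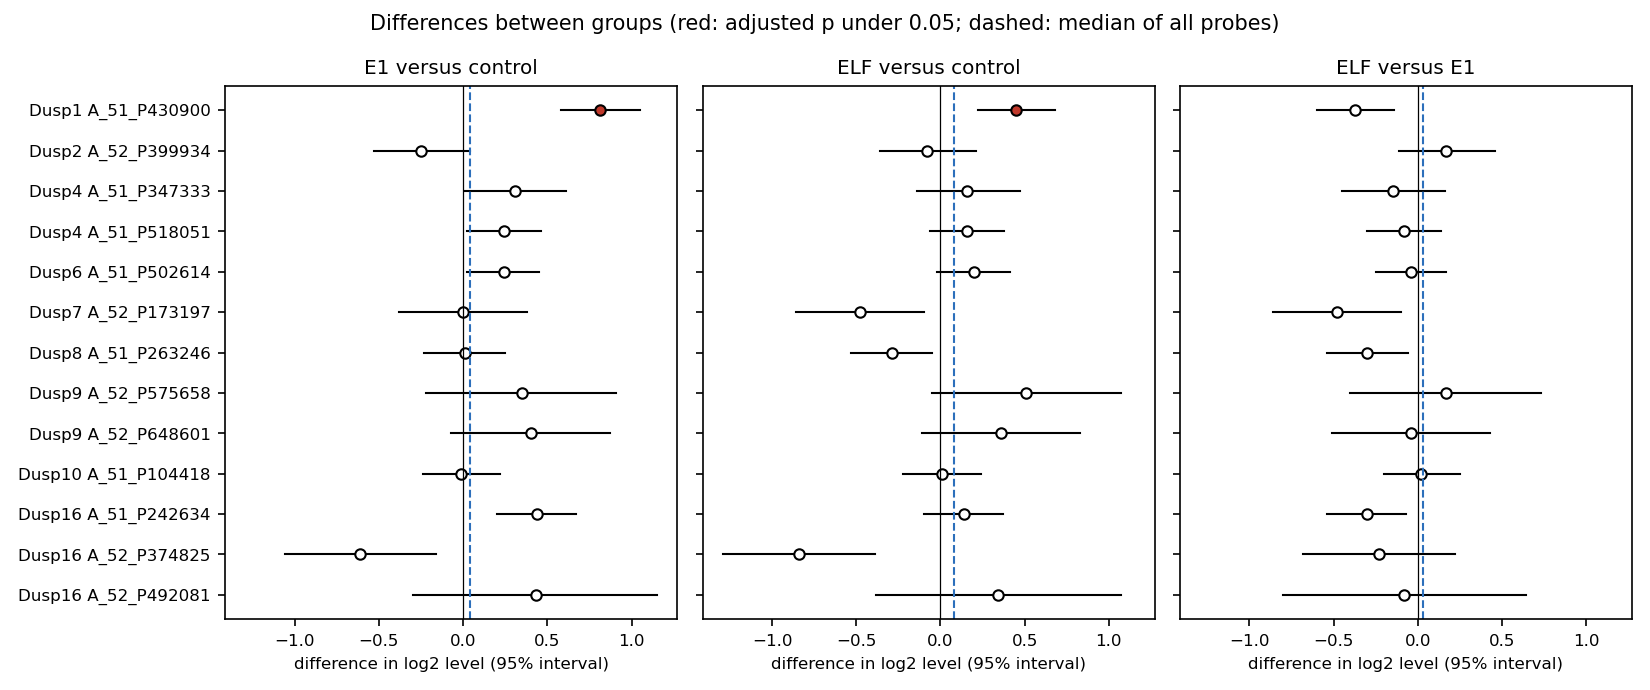
Difference in log2 level (horizontal axis) with its 95% interval from limma for each probe in the 3 comparisons. Filled red points passed at an adjusted p under 0.05, and the dashed line is the median of all probes; Dusp1 alone is filled, at 0.81 for E1 and 0.45 for ELF against control.

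Dusp1 encodes a nuclear phosphatase of JNK, p38 and ERK, and its probe A_51_P430900 lies at chr17:24690398-24690455 (mm7, minus strand). In the control arrays 1 to 5 it stood at 0.19, 0.06, 0.09, 0.02 and 0.10. In E1 it stood at 1.09, 0.74, 1.10, 0.63 and 0.97, and in ELF at 0.44, 0.58, 0.79, 0.34 and 0.54. Every E1 and every ELF array was above the highest control, while ELF and E1 overlapped: 4 of 5 ELF arrays lay below the lowest E1 array, and ELF 3 lay within the E1 range. Its mean was 0.09 ± 0.06 (SD, n = 5) in control, 0.91 ± 0.21 (n = 5) in E1 and 0.54 ± 0.17 (n = 5) in ELF.

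The rise of Dusp1 in E1 was 0.81 (SE 0.11, 95% interval 0.58 to 1.05, limma adjusted p = 0.0136). On slide 2 alone the 3 E1 arrays exceeded the control array by 0.88, and with slide as a fixed block that difference had an adjusted p = 0.597 in limma. With slide as a random block it was 0.82 (limma adjusted p = 0.198). With the replicate number as a block the rise had a limma adjusted p = 0.0525 over all 15 arrays and 0.0145 over the 10 arrays of E1 and control. The labels do not say that the numbers mark pairs. Leaving out 1 array at a time gave 0.77 to 0.88, and the call was lost in limma without control 2 (adjusted p = 0.0662) and without control 3 (adjusted p = 0.0674).

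The rise in ELF was 0.45 (SE 0.11, 95% interval 0.22 to 0.68, limma adjusted p = 0.0477). It stood close to the threshold, and the call was lost in 13 of the 15 fits that left out 1 array (0.38 to 0.50, limma adjusted p from 0.0158 to 0.135), remaining without ELF 4 and without control 5. It was also lost with the array median as the scale (0.34, limma adjusted p = 0.161), on the authors' deposited log2 values (0.35, adjusted p = 0.0675), with the 10 arrays of ELF and control alone (adjusted p = 0.124), with the replicate number as a block (adjusted p = 0.0575) and with slide as a fixed (0.64, adjusted p = 0.174) or random block (0.51, adjusted p = 0.964). ELF minus E1 was -0.37 (SE 0.11, 95% interval -0.60 to -0.14, limma adjusted p = 0.361). On slide 3, which held both groups, the mean difference was -0.24 and the arrays overlapped.

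The other nuclear phosphatases gave smaller differences. Dusp2, which acts on ERK and p38 and is best known from immune cells, ranged from -1.64 to -1.28 in control, from -1.84 to -1.55 in E1 and from -1.97 to -1.20 in ELF. In E1 4 of 5 arrays lay below the lowest control, with a difference of -0.25 (SE 0.13, limma adjusted p = 0.455). Between ELF and control it was -0.08 (95% interval -0.36 to 0.21, limma adjusted p = 0.749), and -0.28 with slide blocked. The 2 ELF arrays of slide 3 were the lowest of the ELF group.

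Dusp4, a nuclear phosphatase of ERK and JNK, had 2 probes that correlated weakly with each other across the 15 arrays (Pearson's r = 0.14, a description over arrays that share groups and slides). Probe A_51_P347333 read 0.60, 0.86, 0.89, 0.83 and 0.94 in control and 1.08, 1.25, 1.16, 1.27 and 0.90 in E1. In ELF it read 0.67, 0.83, 1.33, 1.37 and 0.73, with both slide 3 arrays above the 3 of slide 4. Probe A_51_P518051 read -1.85, -1.64, -1.61, -1.55 and -1.44 in control and -1.58, -1.40, -1.33, -1.19 and -1.38 in E1. In ELF this probe read -1.31, -1.38, -1.63, -1.63 and -1.34, with both slide 3 arrays below the 3 of slide 4. On both probes 4 of 5 E1 arrays lay above the highest control array. The differences were 0.31 (SE 0.14, limma adjusted p = 0.369) and 0.24 (SE 0.10, limma adjusted p = 0.336), and neither passed. With slide as a fixed block they were 0.23 and 0.00. In ELF both probes differed from control by 0.16 (limma adjusted p = 0.502 and 0.368), and with slide blocked these values were 0.49 and -0.34.

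Among the cytoplasmic ERK phosphatases, Dusp6 is a feedback regulator whose transcription follows ERK activity. Its probe A_51_P502614 gave a median intensity of 36900 over the 15 arrays. It read 3.84, 3.94, 3.84, 3.87 and 3.94 in control, 4.10, 4.20, 4.18, 4.20 and 3.93 in E1, and 4.14, 4.39, 4.05, 3.79 and 4.04 in ELF. In each trial group 4 of 5 arrays lay above the highest control, and the fifth lay below it. The difference was 0.24 for E1 (SE 0.10, 95% interval 0.02 to 0.45, limma adjusted p = 0.328; 0.22 with slide blocked) and 0.20 for ELF (SE 0.10, 95% interval -0.02 to 0.41, limma adjusted p = 0.248; 0.07 with slide blocked). Neither passed, and ELF and E1 differed by -0.04 (95% interval -0.25 to 0.17).

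Dusp7, a close relative of Dusp6, read 3.47, 3.55, 3.22, 3.17 and 3.14 in control and 3.24, 3.33, 3.50, 3.03 and 3.44 in E1. In ELF it read 3.09, 2.12, 3.23, 2.89 and 2.83, so that 4 of 5 arrays were below the lowest control and ELF 2 was far the lowest. The E1 difference was 0.00 (95% interval -0.38 to 0.38, limma adjusted p = 0.999). ELF differed from control by -0.48 (SE 0.18, limma adjusted p = 0.133), or by -0.30 without ELF 2, and by 0.04 with slide blocked.

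Dusp9 has a role in the placenta and prefers ERK. Its brighter probe A_52_P575658 ranged from -1.88 to -1.30 in control and from -1.71 to -0.65 in E1. In ELF it read -0.86, -0.60 and -0.78 on slide 4 and -1.48 and -2.01 on slide 3, a split larger than the unblocked differences between group means of this probe. The dimmer probe A_52_P648601 followed the same split (-4.29, -4.11 and -4.07 against -4.71 and -5.41), and both probes correlated at Pearson's r = 0.78 across the 15 arrays. ELF minus control was 0.51 (SE 0.26, limma adjusted p = 0.254) on the brighter probe and -1.09 with slide blocked. Against E1 the slide-blocked difference was -0.83 and passed in limma (adjusted p = 0.028), a fit that called 18% of all probes, whereas without the block it was 0.17 (limma adjusted p = 0.878). No direction is therefore given for Dusp9.

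Of the stress-kinase phosphatases, Dusp8 is expressed in brain and inactivates JNK and p38. It read 2.75, 2.98, 2.70, 2.73 and 2.85 in control and 2.79, 2.73, 2.79, 2.90 and 2.85 in E1, a difference of 0.01 whose 95% interval ran from -0.23 to 0.25 (limma adjusted p = 0.981). The sign of that value turned with another scale (-0.03 by array median, -0.02 by quantile normalization). In ELF it read 2.67, 2.21, 2.24, 2.74 and 2.67, and 4 of 5 arrays lay below the lowest control. The difference was -0.29 (SE 0.11, limma adjusted p = 0.141; -0.47 with slide blocked) and did not pass. The Dusp8 promoter window held 2 CREs and that of Dusp1 held 1, and these windows were chosen after the values had been seen. Whether the Dusp8 and Dusp1 differences differ, or whether either goes with its CREs, was not tested.

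Dusp10, a phosphatase of p38 and JNK, ranged from -2.15 to -1.61 in control, from -1.96 to -1.68 in E1 and from -2.02 to -1.63 in ELF. The difference was -0.01 for E1 (95% interval -0.24 to 0.22, limma adjusted p = 0.978) and 0.01 for ELF (95% interval -0.22 to 0.24, limma adjusted p = 0.952). With slide blocked the differences were 0.40 and 0.62 (limma adjusted p = 1 and 0.106), outside these intervals. Both signs also depended on the arrays or the scale used.

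Dusp16 binds and inactivates JNK, and its 3 probes gave differences of unlike sign. Probe A_51_P242634 (transcript NM_130447, chr6:134729960-134730000 in mm7, minus strand) read -2.45, -2.63, -2.47, -2.34 and -2.17 in control and -2.00, -2.12, -1.99, -1.88 and -1.88 in E1. Every E1 array lay above every control array. In ELF it read -2.39, -1.95, -2.23, -2.47 and -2.35, with ELF 2 above the control range. The E1 difference was 0.44 (SE 0.11, 95% interval 0.20 to 0.67, limma adjusted p = 0.101), and 0.13 on slide 2 alone. ELF was 0.14 above control (limma adjusted p = 0.465), and -0.34 with slide blocked.

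Probe A_52_P374825 of Dusp16 (NM_181320, which the array annotation names as transcript variant 2, at chr6:134751853-134751912 in mm7, minus strand) had differences of the opposite sign. It read -2.29, -2.33, -2.42, -2.33 and -2.74 in control, -2.76, -2.85, -2.96, -3.15 and -3.46 in E1, and -2.86, -2.92, -3.91, -3.72 and -2.90 in ELF. Every E1 and ELF array lay below every control array, and within each group the values followed the slide: control 5 of slide 2 was near the E1 arrays of slide 2, and the slide 3 arrays were the lowest of E1 and of ELF. The difference was -0.61 in E1 (SE 0.21, 95% interval -1.06 to -0.16, limma adjusted p = 0.218), and -0.11 on slide 2 alone. In ELF it was -0.84 (SE 0.21, 95% interval -1.29 to -0.39, limma adjusted p = 0.0512), just short of the threshold. It passed in limma with quantile normalization (-0.95, adjusted p = 0.00872), with the array median as scale (-0.94, adjusted p = 0.0116), with normexp (-0.65, adjusted p = 0.0358), with probes well above background on all 15 arrays (adjusted p = 0.0417) and on the authors' deposited log2 values (-0.80, adjusted p = 0.01). It did not pass in limma with slide as a fixed (-0.63, adjusted p = 0.106) or random block (-0.75, adjusted p = 0.964), with the replicate number as a block (adjusted p = 0.0705), with the 10 arrays of ELF and control alone (adjusted p = 0.152), with no filter on dim probes (adjusted p = 0.0522) or in 13 of the 15 fits that left out 1 array.

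The third Dusp16 probe, A_52_P492081 (NM_130447, chr6:134732307-134732366), was dim, with a median intensity of 88.8, and control 4 and control 5 stood apart from the other controls (-3.63 and -4.54 against -5.52 to -5.41). Its E1 difference was 0.43 with a 95% interval of -0.30 to 1.15 (limma adjusted p = 0.637), and -0.16 with slide blocked. Across the 15 arrays the variant 2 probe correlated at r = -0.36 with A_51_P242634 and at r = -0.10 with this probe, and the pair annotated to NM_130447 at r = 0.53. Probe position relative to exons was not analysed here. In the fit with the replicate number as a block on the 10 arrays of E1 and control, A_51_P242634 (limma adjusted p = 0.0168) and A_52_P374825 (adjusted p = 0.0155) passed in their opposite directions beside Dusp1, 3 of 13 members. That fit called 11.6% of all probes (3396 higher and 1078 lower).

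**Figure D3:**
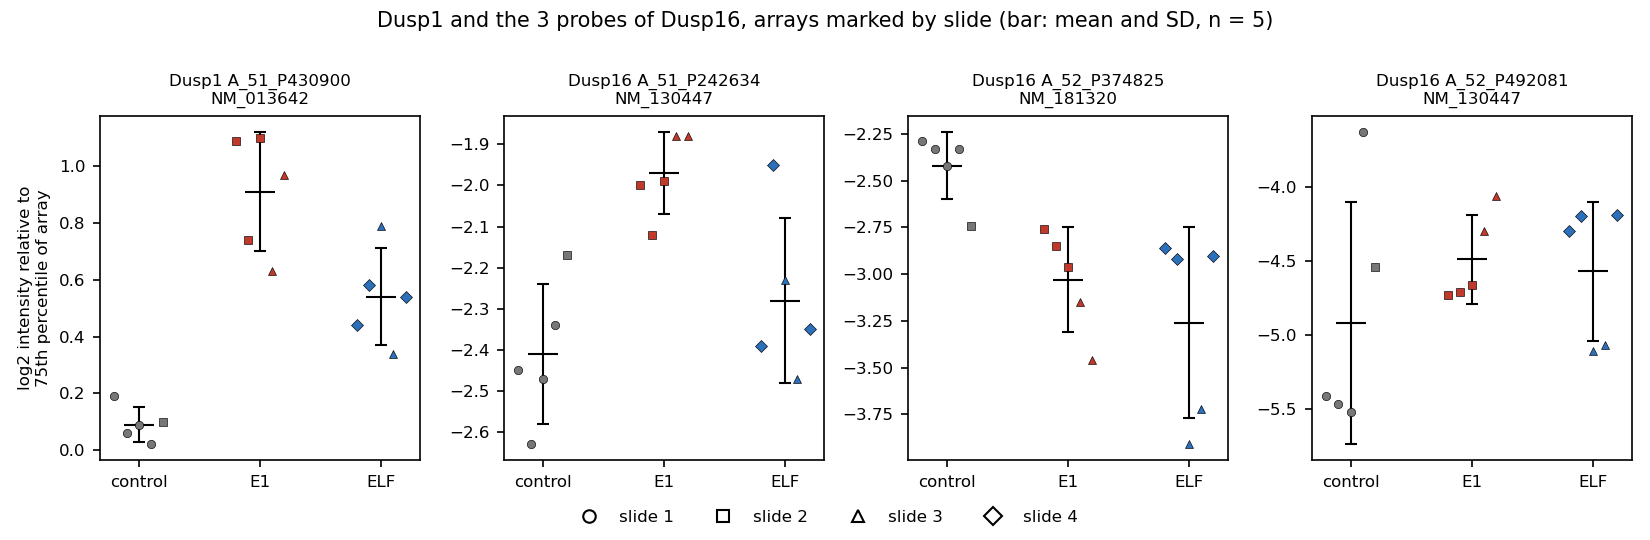
Log2 intensity relative to the array's 75th percentile (vertical axis) of Dusp1 and of the 3 Dusp16 probes on each array, with symbols for the slide and bars for mean and SD. The E1 points of Dusp1 lie above all control points on slide 2 and on slide 3, whereas the Dusp16 probe A_52_P374825 steps down from slide 1 to slide 2 to slide 3 and is higher again on slide 4.

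By function, the 4 probes of nuclear inducible members had a median difference of 0.28 between E1 and control, the 4 of cytoplasmic ERK-selective members 0.29, and the 5 of JNK- and p38-selective members 0.01. Between ELF and control these medians were 0.16, 0.28 and 0.01, and between ELF and E1 -0.12, -0.04 and -0.23. With slide blocked the medians, in the order of functions above, were 0.12, 0.14 and -0.09 for E1 against control, 0.11, -0.18 and -0.47 for ELF against control and -0.14, -0.33 and -0.47 for ELF against E1, so 1 changed direction in E1 and 2 in ELF against control. Of the 4 cytoplasmic probes 2 were those of Dusp9. Without the block no probe of these groups apart from Dusp1 passed in limma.

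The kinases that these phosphatases act on, and the cascades above them, showed few differences. Lists of related genes were read through the brightest probe of each gene, and on that basis 0.134%, 2.32% and 0.00766% of 26121 genes passed in E1 against control, ELF against control and ELF against E1, and 13.1%, 23% and 9.66% had an unadjusted p under 0.05. Of 30 measured genes of the ERK cascade none passed in limma in the 3 comparisons (1, 5 and 4 at an unadjusted p under 0.05). Their medians were 0.02, -0.04 and 0.02, and -0.01, -0.04 and -0.04 with slide blocked. Mapk3, which encodes ERK1, differed by 0.12 in E1 (limma adjusted p = 0.662) and by 0.37 in ELF (SE 0.10, limma adjusted p = 0.0602; 0.09 with slide blocked). Map2k1, an activating kinase of ERK, differed by 0.03 and 0.05, or by -0.07 and -0.04 with slide blocked. Of 32 genes of the JNK, p38 and ERK5 cascades none passed in limma either (2, 3 and 4 unadjusted), with medians of 0.06, 0.03 and -0.03. With slide blocked these were -0.02, -0.12 and -0.08. The medians of all genes were 0.04, 0.10 and 0.05, and -0.04, -0.22 and -0.18 with slide blocked.

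Other brakes on the same pathway gave 1 call. Of 16 other feedback inhibitors of receptor tyrosine kinase signalling, none passed in E1 by limma (0 unadjusted). In ELF Spred2, which blocks Raf activation, fell by 0.44 on the log2 scale (SE 0.10, limma adjusted p = 0.0454; -0.35 with slide blocked). Spry2 and Spry4, the Sprouty inhibitors, differed by 0.16 and -0.30 in E1 and by 0.27 and -0.05 in ELF, without passing. With slide blocked Spry4 was at 0.64 and 1.72. Of 10 other phosphatases of MAP kinases none passed by limma (2, 2 and 0 unadjusted), and Ptpn5, the striatum-enriched tyrosine phosphatase of ERK, differed by 0.13 in E1 and 0.01 in ELF (-0.07 and -0.29 with slide blocked). Of 21 measured atypical dual-specificity phosphatases none passed by limma (2, 8 and 4 unadjusted), with medians of 0.01, 0.13 and 0.03. With slide blocked these medians were -0.02, -0.23 and -0.10, against -0.04, -0.22 and -0.18 for all genes.

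Of the 7 related lists, those of genes switched on by neuronal activity held the genes that passed in E1. In E1 5 of 32 immediate early transcription factor genes rose by limma and none fell. Fos rose by 1.47 (SE 0.25, adjusted p = 0.0431), Egr2 by 1.22 (adjusted p = 0.0397), Junb by 0.88 (adjusted p = 0.0431), Nr4a1 by 0.88 (adjusted p = 0.0236) and Ier2 by 0.85 (adjusted p = 0.0152). Egr1 was higher on every E1 array, by 0.61, without passing (limma adjusted p = 0.108). Of 17 effector genes Arc, a synaptic protein that binds its own RNA in capsids, rose by 1.16 (limma adjusted p = 0.0136) and Trib1, a pseudokinase, by 0.81 (adjusted p = 0.0236). The median difference was 0.19 for the factors and 0.42 for the effectors, against 0.04 for all genes. With slide as a fixed block, where 4 probes in all passed, the 7 genes that rose had differences of 0.68 to 1.25, and the medians were 0.00 for the factors and 0.36 for the effectors, against -0.04 for all genes.

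In ELF against control 2 of the 32 factors passed in limma. Atf3 rose by 0.54 (adjusted p = 0.0492) and Klf4 fell by 0.89 (adjusted p = 0.041), with slide-blocked values of -0.15 and -0.06. Gadd45g, a regulator of stress-kinase signalling, rose by 0.55 (limma adjusted p = 0.0303; 0.40 blocked). Fos stood 0.67 above control in ELF (limma adjusted p = 0.136) and Arc 0.40 above (adjusted p = 0.153), or 1.09 and 0.88 with slide blocked. Against E1 the ELF values were -0.80 for Fos (limma adjusted p = 0.377) and -0.77 for Arc (adjusted p = 0.234), and every ELF array of Arc lay below every E1 array. For Dusp1 the same difference was -0.37, so all 3 stood lower in ELF than in E1 without passing. With slide blocked these values were -0.16 for Fos, -0.35 for Arc and -0.24 for Dusp1. Egr1 stood at -0.38 against E1, and at 0.14 with slide blocked. None of the 32 factors and 17 effectors passed in limma between ELF and E1, while 13 and 7 of them had an unadjusted p under 0.05, against 9.66% of all genes. Their medians were -0.13 and -0.18, against 0.05 for all genes. With slide blocked they were -0.05 for the factors and -0.30 for the effectors, against -0.18 for all genes. The median of the factors thus lay below that of all genes without the block and above it with the block.

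**Figure D4:**
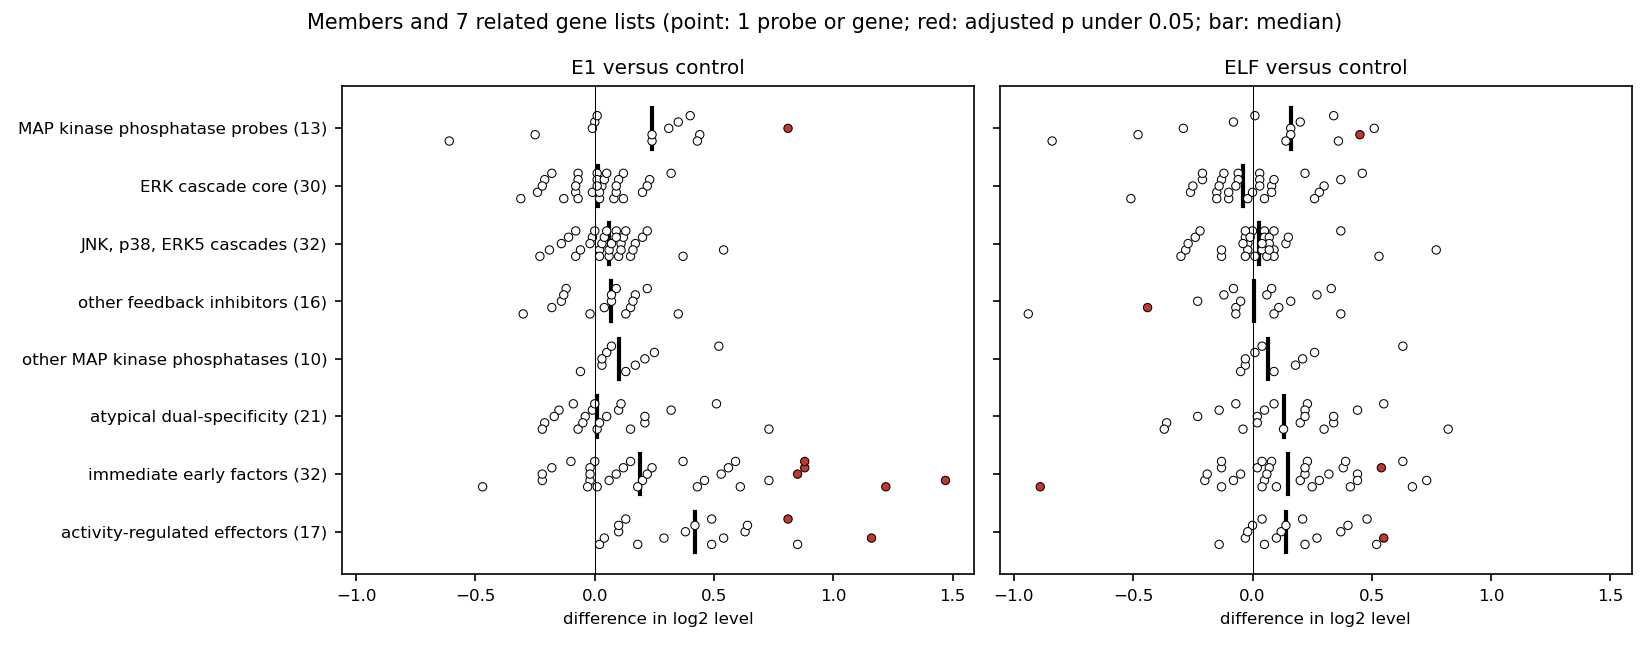
Difference in log2 level (horizontal axis) of the 13 MAP kinase phosphatase probes and of the genes in 7 related lists, in E1 (left) and ELF (right) against control. Each point is 1 probe or gene, red points passed at an adjusted p under 0.05 and bars are list medians; in E1 the red points are Dusp1, 5 immediate early factors and 2 effectors.

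The genes whose profile over the 15 arrays was most like that of Dusp1 were Ier2 (Pearson's r = 0.98), AK030494 (0.94), Nr4a1 (0.92), Rnmtl1 (0.92) and Egr2 (0.91). For 7 other members the single most alike gene was Bcl6 for Dusp4 (r = 0.93), Rwdd1 for Dusp6 (0.90), Wasl for Dusp7 (0.96), Kcnh5 for Dusp8 (0.92), Zfp119 for Dusp10 (0.91), Gemin7 for Dusp16 (0.95) and AK087326 for Dusp2 (0.94). These are the highest values among all genes, over arrays that share groups and slides, and are given as descriptions. Among the 5 genes most like Dusp1, 3 were immediate early factors that passed in E1. Dusp1 was the member with the smallest F-test p over the groups of these same arrays, so those calls are not separate support.

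Markers of hippocampal neurons were present at similar summed linear levels, relative to the array's 75th percentile, in control (65.7 to 72.7), E1 (64.4 to 80.6) and ELF (60.3 to 72.3), and all 8 were well above background on every array. Endothelial markers were lower in E1 and ELF: their summed level over 11 of 12 genes was 9.22 to 16.9 in control, 5.53 to 8.21 in E1 and 5.43 to 6.86 in ELF, and by limma 1 of the 11 fell in E1, the tight junction gene Cldn5, and 6 fell in ELF. With slide blocked the fall of Cldn5 in E1 was -0.62 in place of -0.93, and the 6 differences in ELF were -0.47 to -0.12 in place of -1.20 to -0.59. The median of the 11 was -0.61 in E1 and -0.74 in ELF, and -0.25 and -0.47 with slide blocked (-0.04 and -0.22 for all genes). The summed level of 9 of 10 choroid plexus markers was 40.4 to 62.7 in control, 32.1 to 54.3 in E1 and 2.75 to 35 in ELF. None passed in limma against control (0 in E1 and 7 in ELF at an unadjusted p under 0.05). Their median difference from control was -0.28 in E1 and -1.38 in ELF, and -0.04 and -1.58 with slide blocked. Among ELF arrays their mean log2 level ranged from -2.31 to 1.05, with a median of 0.76. Of the 6 other marker lists 1 gene rose in E1 by limma (Ramp3 of thalamus and habenula), and in ELF S100b of astrocytes rose while Rgs5 of pericytes and Igf2 of meninges fell. All measured endothelial and choroid plexus markers were well above background on every array. Their part in the differences of the phosphatase probes was not tested. In whole hippocampus fewer cells of a type and less RNA per cell cannot be told apart.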

How the data were processed

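Hippocampal RNA of 15 mice was hybridised to 15 one-colour arrays. Per the file headers, Agilent Feature Extraction 9.5.3.1 gave each spot a processed intensity, background-subtracted and detrended, with 0 or 1 flags for outlier, saturated and well-above-background spots, and probe coordinates in mm7. A value table that the authors deposited is on a log2 scale (medians 8.68 to 8.92 per array, Pearson's r with log2 mean intensity at least 0.996 on each array). How it was normalized was not given in the sources used here.

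Control and outlier spots were left out, log2 intensities were set relative to the array's 75th percentile (intensity 1441 to 2932), and spots of a probe were averaged. Probes well above background on at least 5 of 15 arrays were kept (38462 of 41174), since 83.5% to 97.2% of an array's spots reached that level and dim probes are less precise. All 15 arrays were fitted with limma 3.58.1 in R 4.3.3 (lmFit, eBayes, two-sided), without covariates, with Benjamini-Hochberg adjustment over all kept probes, at 0.05. The script was tested on simulated data without a slide effect, so that test cannot show how slide bears on the calls. All arrays were scanned on 1 day. Slide, read from the array identifiers, was tested as a fixed and as a random block (correlation 0.448).

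The labels call the 5 samples of a group biological replicates, and do not say that numbers mark pairs. Deviations from the group means of same-numbered control and E1 arrays correlated at 0.152 to 0.289 in 5 of 5 pairs. In 3 of these 5 the E1 array correlated most with the control of its own number. For ELF with control the range was -0.426 to 0.299, and for ELF with E1 it was -0.386 to 0.166. The reported fit took no pairs, and the replicate number entered as a block only in alternative fits. Within each group the number is also bound to slide, so these correlations do not show that numbers mark pairs.

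The members, the related lists and the tests were chosen with earlier results of these data known. All probes of the members are given. From each list up to 5 genes past the threshold are named, plus Mapk3, Map2k1, Ptpn5, Spry2, Spry4, Fos, Egr1 and Arc; some genes that this rule or the search for alike genes named are not reported here. Alternatives were other scaling, background correction, dim-probe filters, 1 probe per gene, the authors' table, fewer arrays and the blocks. Promoters were matched by symbol to RefSeq windows of GRCm38.p6. Exon annotation of mm7 was not used here.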

Additional observations from a re-analysis of the deposited data

How the results depend on the processing

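Of 1015 alternative values of the 39 member differences, 917 kept direction and side of the threshold. A further 60 changed direction, 26 of these when 1 array was left out. Of the values that kept direction, 24 lost a call and 14 gained one. Dusp9 A_52_P575658 in ELF against E1 with slide fixed changed direction and also gained a call. Only Dusp1 against control was called in the reported fit, so the other differences had no call to lose. The number of arrays, the dim probes of Dusp9 and Dusp16 and the binding of slide to group limit all of these values. The cause of the changes below was not tested.

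Probes called in E1 against control numbered 40 in the reported fit (27 higher, 13 lower), 268 on the authors' table (208 and 60), 360 with median scaling (312 and 48), 539 with quantile normalization (438 and 101), 2 with the replicate block, 4474 with that block on the 10 arrays of E1 and control (an alternative added after seeing the data), 4 with slide fixed and 0 with slide random (916 at an unadjusted limma p under 0.05). Members called were 0, 3, 0 and 0 in these last 4. In ELF against control the 907 calls (571 higher, 336 lower) became 562 with 1 probe per gene, 2549 on the authors' table (1085 and 1464), 1857 with median scaling (966 and 891), 2514 with quantile normalization (1376 and 1138), 0 with only the 10 arrays (6817 unadjusted), 287 with the replicate block, 190 with slide fixed and 0 with slide random (1853 unadjusted). Members called were 2 with normexp, quantile normalization and the filter on all 15 arrays, and 0 with 10 arrays, the replicate block and either slide block. In ELF against E1 the 2 calls became 0 on the authors' table, with median scaling, normexp, 10 arrays, the replicate block and slide random, 1 without the filter and with quantile normalization, and 6920 with slide fixed, where 2 members, Dusp9 A_52_P575658 and Dusp16 A_52_P374825, passed. With slide fixed the median of all probes shifted from 0.08 to -0.23 for ELF against control and from 0.03 to -0.18 for ELF against E1, and that of the members from 0.16 and -0.08 to -0.34 in both. For E1 against control the median of the members was 0.06 with slide fixed, in place of 0.24. The replicate block changed no member call other than those given.

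Leaving out 1 array gave 5 (without control 2 or control 3) to 1634 calls (without control 5) for E1 against control, 0 (without control 2 or control 3) to 7195 (without ELF 4) for ELF against control and 0 to 15 (without ELF 3) for ELF against E1. Members called ranged from 0 to 2 (without control 5, where 4.25% of all probes passed), 0 to 5 (without ELF 4, where 18.7% passed) and 0 to 0. Those 5 were the probes of Dusp1 and Dusp8, both of Dusp9, and Dusp16 A_52_P374825. Over the 15 fits of each comparison the medians of the members ranged from 0.22 to 0.29, 0.11 to 0.20 and -0.15 to -0.04. Signs turned in these fits for Dusp10 (-0.09 to 0.04 in E1, -0.07 to 0.07 in ELF, -0.02 to 0.08 between them), Dusp7 and Dusp8 in E1 (-0.05 to 0.07 and -0.01 to 0.05), Dusp2 in ELF (-0.17 to 0.03) and, between ELF and E1, Dusp6 (-0.12 to 0.03), Dusp9 A_52_P648601 (-0.15 to 0.18) and Dusp16 A_52_P492081 (-0.18 to 0.05).

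Other reversed differences were as follows. In E1 against control Dusp8 was -0.03 on the authors' table and by median, -0.02 by quantile and with slide random, and -0.09 with slide fixed; Dusp7 was 0.22 with slide fixed and 0.05 random, Dusp10 0.40 and 0.14, Dusp9 A_52_P575658 -0.27 fixed and Dusp16 A_52_P492081 -0.16 fixed. In ELF against control Dusp10 was -0.08 on the authors' table and by quantile, -0.09 by median and 0.00 with normexp. With slide fixed, Dusp4 A_51_P518051 and Dusp16 A_51_P242634 were -0.34, Dusp7 0.04, the Dusp9 probes -1.09 and -0.41 and Dusp16 A_52_P492081 -1.06. With slide random, Dusp4 A_51_P518051 and Dusp9 A_52_P575658 were -0.01, Dusp16 A_51_P242634 -0.02 and A_52_P492081 -0.11. In ELF against E1 Dusp10 was -0.03 on the authors' table and by median and -0.04 by quantile, and Dusp6 0.02 with normexp. With slide fixed Dusp2 was -0.04, Dusp4 A_51_P347333 0.26 and Dusp9 A_52_P575658 -0.83, and with slide random the last 2 probes were 0.06 and -0.25.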
